A study of Mus musculus with 6 samples.

Results

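Venous endothelial identity was followed through 10 genes, Slc6a2, Vcam1, Ackr1, Selp, Amigo2, Prss23, Bst1, Car8, Cpe and Tmem252, in lung endothelial cells of mouse pups with and without endothelial Smad4. They were chosen by name, with earlier results of these data known. All 10 were found among the 24951 genes of the deposited counts and passed the low-count filter with 14934 genes. RNA was sequenced at postnatal day 5 from cells pulled out of digested lungs with beads against CD31, an endothelial surface protein, in 3 control and 3 mutant libraries made from separate biological samples per the labels. Pups of both groups carried the same pair of floxed Smad4 alleles (Smad4 f/f), and the mutants also carried Cdh5-CreERT2, a Cre recombinase driven by the promoter of VE-cadherin and switched on by tamoxifen. No group had Cre with intact Smad4, and the labels, which call the controls Wildtype, give neither dose nor day of tamoxifen. A sentence on library making names HHTf/f and HHTiECKO mice, which the labels do not explain.

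Veins and venules differ from arteries and capillaries in the proteins on their endothelium. They are the vessels through which leukocytes leave the blood, by rolling on selectins and holding to adhesion molecules such as VCAM-1, and in the lung their endothelium also takes up circulating noradrenaline. SMAD4 is the partner that receptor-activated SMADs of the BMP and TGF-beta pathways share when they enter the nucleus.

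Reads assigned to genes came to 14093564 to 21113926 per library, so that the floor of 3 counts lay at 0.140 to 0.214 CPM (read counts scaled by library size, the unit of every level below). Smad4 itself fell by 1.09 on the log2 scale (SE 0.10, edgeR adjusted p = 0.000604). The endothelial markers on the list, such as Cdh5 and Tie1, were abundant, with Cdh5 the highest; 1 of the 10, Tek, fell (adjusted p = 0.0127, and 0.0540 and 0.0760 without control replicate 3 and mutant replicate 2), and the list summed to 8765 to 9739 CPM in controls and 9192 to 9524 CPM in mutants. Xist and Y-linked genes showed replicate 1 of each group to be male and the other 4 libraries to be female. In these bulk samples fewer cells of a type and less RNA per cell cannot be told apart, and no value below says how many venous cells a library held.

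Amigo2 was lower in the mutants, and the other 9 venous genes did not pass the test in either direction. Of the 10 genes, 0 rose, 1 fell and 9 did not pass at an adjusted p under 0.05, where 3.27% of all tested genes were called, 1.93% higher and 1.34% lower. At an unadjusted p under 0.05 there were 2 higher, Vcam1 and Tmem252, and 2 lower, Amigo2 and Car8, against 14% of all tested genes in either direction. Those 4 genes were also the members with no overlap between groups, 2 with higher and 2 with lower mutants, as in 20.6% of all tested genes, 11.6% higher and 9.04% lower. DESeq2 called 0 higher and 2 lower, Amigo2 and Car8, with 4.85% of its genes called, 2.89% higher and 1.96% lower, and limma-voom called 0 higher and 1 lower, with 2.96% called. The median log2 fold change of the 10 genes was -0.07, beside -0.0024 over all tested genes. The members' median moved with single libraries, to -0.26 without mutant replicate 1 and to -0.016 without mutant replicate 2. It was -0.027 without control replicate 1, -0.115 without control replicate 2, -0.025 without mutant replicate 3 and -0.25 in the female libraries.

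**Figure D1:**
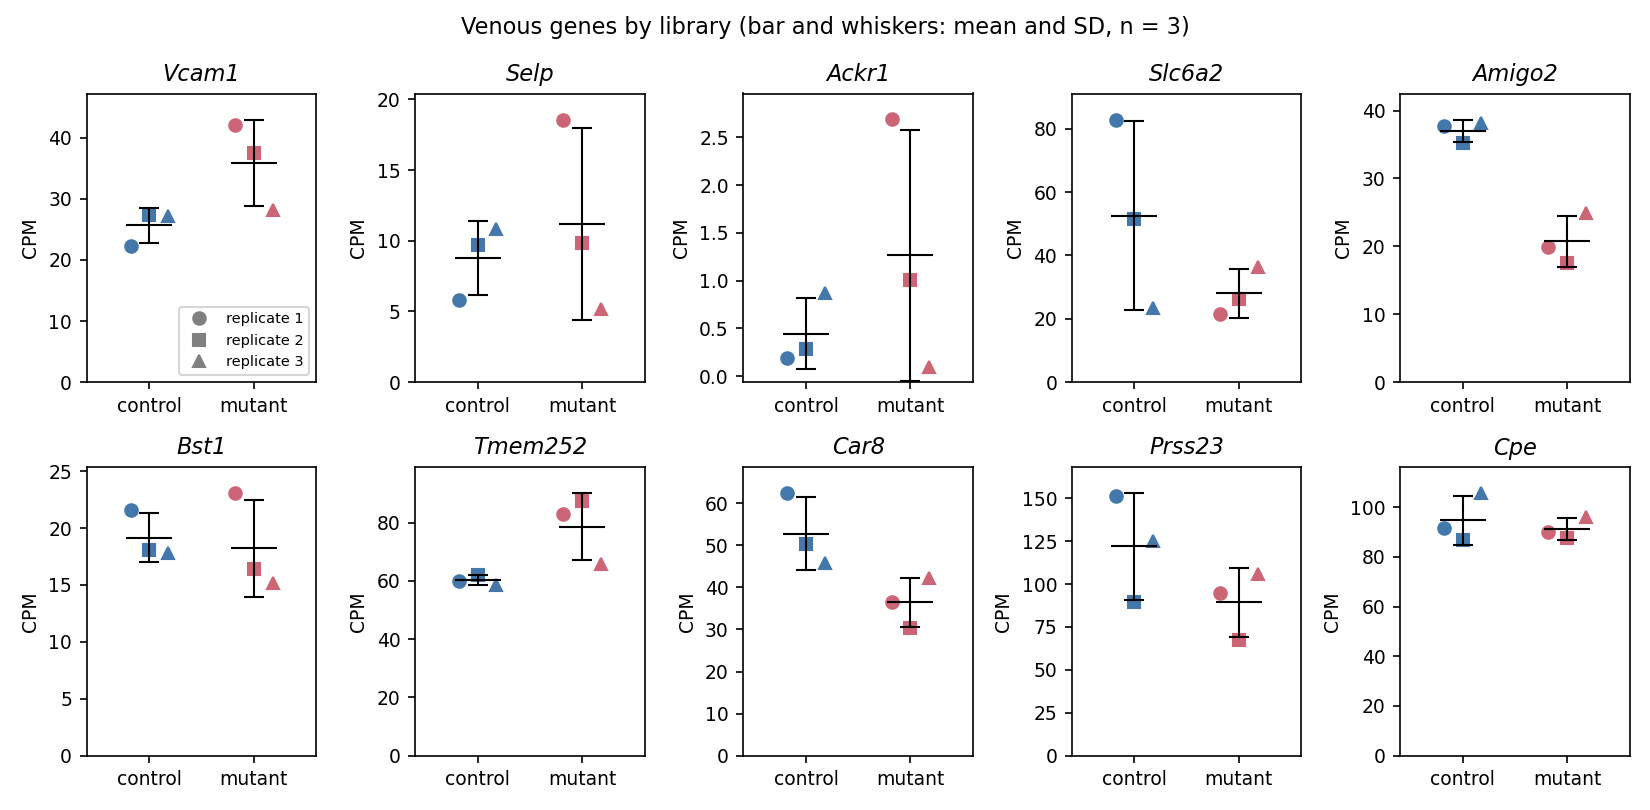
Level of each of the 10 venous genes in CPM, with 1 point per library, shaped by replicate, and the mean and SD of each group (n = 3). Amigo2 and Car8 lie lower and Vcam1 and Tmem252 higher in the mutants with no overlap, whereas Slc6a2, Selp and Ackr1 spread widely within a group.

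Amigo2 encodes a surface adhesion protein with leucine-rich repeats and an immunoglobulin domain. The gene, ENSMUSG00000048218.6, covers chr15:97244125-97247287 (GRCm38, minus strand). Of the members, 3 that the results turn on had an entry in the RefSeq promoter table (GRCm38.p6), and the 250 bases before each start are given so that the gene that fell, a gene whose mutant libraries all lay above the controls, and a gene that varied within both groups can be set side by side. They lie at chr15:97247288-97247537 on the minus strand for Amigo2, chr19:24673758-24674007 on the plus strand for Tmem252 and chr1:164115014-164115263 on the plus strand for Selp. Capitals mark the motif GGCGCC, bound by BMP SMADs, in Amigo2, the nuclear receptor half-site AGGTCA, read on the opposite strand, in Tmem252, and the NF-kappaB motif (GGG and CC with 5 bases of any kind between) in Selp.
Amigo2: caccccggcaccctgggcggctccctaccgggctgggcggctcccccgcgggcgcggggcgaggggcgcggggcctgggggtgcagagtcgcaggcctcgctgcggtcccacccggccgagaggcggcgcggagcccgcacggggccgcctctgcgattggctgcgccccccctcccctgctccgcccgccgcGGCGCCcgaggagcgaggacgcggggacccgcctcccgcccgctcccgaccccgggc
Tmem252: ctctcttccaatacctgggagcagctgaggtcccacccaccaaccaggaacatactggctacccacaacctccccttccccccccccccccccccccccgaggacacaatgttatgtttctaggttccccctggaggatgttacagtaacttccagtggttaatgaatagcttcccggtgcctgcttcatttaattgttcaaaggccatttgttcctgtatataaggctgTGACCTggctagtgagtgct
Selp: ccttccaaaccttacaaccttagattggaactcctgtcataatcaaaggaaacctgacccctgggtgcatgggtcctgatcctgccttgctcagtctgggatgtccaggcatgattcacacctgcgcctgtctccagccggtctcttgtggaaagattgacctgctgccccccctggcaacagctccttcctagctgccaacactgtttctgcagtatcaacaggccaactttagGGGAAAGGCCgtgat

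These windows differ in base composition and in the motifs they hold. G and C made up 84% of the bases before Amigo2, 53.2% before Tmem252 and 53.6% before Selp. The search covered both strands and 4 further motifs, the SMAD palindrome GTCTAGAC, the SMAD half-site GTCTG, the GATA motif AGATAA and the TATA motif TATAAA. The SMAD motif GGCGCC stood before Amigo2 at -57 to -52 from the start, and 9.59% of 32851 promoter windows of the same length hold it. The NF-kappaB motif matched before Amigo2 at several positions, some of them overlapping on opposite strands, once before Tmem252 and once before Selp, and 45.8% of windows hold it. AGGTCA matched before Tmem252 and Selp, as in 14.0% of windows, and GTCTG before Selp, as in 42.2%. The SMAD palindrome, the GATA motif and the TATA motif were found in none of the 3 windows and in 0.167%, 9.99% and 12.4% of all windows. For TATA only the exact TATAAA was searched, so near forms, such as tatataag before Tmem252, were not counted. Ackr1 and Prss23 were the other members in the table, which held 5 of the 10, with 7 starts for Prss23. GGCGCC also stood before 1 of the starts of Prss23, a gene that was not called, at -80 to -75, and the SMAD half-site before the same start at -67 to -63. A match is given as a description of the sequence.

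Amigo2 measured 37.7, 35.2 and 38.2 CPM across control replicates 1 to 3, against 19.9, 17.5 and 24.9 CPM across mutant replicates 1 to 3. All 3 mutant libraries lay below all 3 controls, and the spread was wider in the mutants. The mutants differed by -0.83 on the log2 scale (SE 0.14, 95% interval -1.13 to -0.53, edgeR quasi-likelihood adjusted p = 0.00812), which is 1.78-fold lower. The fall was seen in both sexes, with 37.7 against 19.9 CPM in the male pair, and the 4 female libraries alone gave -0.79 (adjusted p = 0.0534), a fit in which the call ended. Each of the 6 fits that left out 1 library kept the call, and the highest adjusted p among them was 0.0427.

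The 5′ end of Amigo2 overlaps that of Pced1b on the opposite strand, and 58 bases, 1.83% of the annotated exon length of Amigo2, are exons of both. Pced1b also fell, from 43.5 ± 1.59 to 30.2 ± 3.26 CPM (SD, n = 3 each), with a log2 fold change of -0.53 (SE 0.11, adjusted p = 0.0257), a call lost in 5 of the 6 fits that left out 1 library, all but that of mutant replicate 3 (adjusted p = 0.0557 to 0.125). The library kit does not mark strand, so reads from the shared bases cannot be assigned to one of them, and Pced1b was named here after its values were seen. Amigo2 is also expressed by neurons, and the 9 neuroendocrine and neural markers summed to 2.41 to 2.92 CPM in controls and 1.98 to 2.98 CPM in mutants, with Th at 0 counts in every library. The part of such cells in the level of Amigo2 was not tested.

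After the control mean was subtracted from log2 CPM, the genes closest to Amigo2 over the 6 libraries, by root mean square difference, were Mapt, Epas1 and Srms of 12136 searched. Their differences were 0.06, 0.08 and 0.10 on the log2 scale. Mapt, which encodes the microtubule protein tau, went from 44.8 ± 2.05 to 25.2 ± 2.91 CPM (adjusted p = 0.00312). Epas1, the hypoxia-inducible factor gene abundant in lung endothelium, went from 2299 ± 95.2 to 1281 ± 111 CPM (adjusted p = 0.000794). Srms, a kinase gene, went from 5.80 ± 0.216 to 3.12 ± 0.366 CPM (adjusted p = 0.0336), a call that ended whichever library was left out (adjusted p 0.0606 to 0.153). These 3 genes were picked for their likeness, so that their falls are a description.

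Car8 encodes a carbonic anhydrase-related protein that lacks enzyme activity and binds the inositol trisphosphate receptor. Car8 measured 62.4, 50.3 and 45.7 CPM across control replicates 1 to 3, against 36.6, 30.4 and 42.2 CPM across mutant replicates 1 to 3. The highest mutant lay just under the lowest control. The log2 difference was -0.53 (SE 0.15, 95% interval -0.87 to -0.20), which did not pass over all genes in edgeR (adjusted p = 0.105) and passed in DESeq2 (adjusted p = 0.0268).

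Slc6a2, the noradrenaline transporter gene, varied widely among the controls. It measured 82.8, 51.5 and 23.3 CPM across control replicates 1 to 3, against 21.5, 26.1 and 36.5 CPM across mutant replicates 1 to 3. Control replicate 3 lay within the mutant range, and the highest control was 3.56 times the lowest. Fitted on the log2 scale, the difference was -0.90 (SE 0.47, 95% interval -2.07 to 0.26, adjusted p = 0.477), a wide interval that includes 0. The value was -0.40 without control replicate 1, -1.26 without control replicate 3 and -0.24 in the female libraries.

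Among the lists of other cell types, 3 had the same order as Slc6a2 among the controls. The 8 lung epithelial markers, of which Sftpc was highest, summed to 3458, 2918 and 1964 CPM across control replicates 1 to 3, and the 6 mesothelial markers, of which Krt19 was highest, to 149.7, 121 and 79.5 CPM. The 8 smooth muscle and pericyte markers summed to 356, 354 and 239 CPM there, and to 318, 441 and 295 CPM across mutant replicates 1 to 3. Among the mutants the epithelial sum was 2602, 2890 and 2525 CPM and the mesothelial sum 126, 124 and 97.5 CPM in replicates 1, 2 and 3, whereas Slc6a2 was highest in replicate 3. Their part in the spread of Slc6a2 was not tested. Sympathetic neurons also make the transporter. Of their genes of noradrenaline synthesis, Th was at 0 counts in all 6 libraries and Dbh at 0 or 1 count, and the part of these cells in Slc6a2 was not tested.

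Of 10 other genes that carry, break down or sense noradrenaline and related amines, 0 were called by edgeR, with 0 higher and 3 lower at an unadjusted p under 0.05, and their median log2 fold change was -0.16. Maob, a monoamine oxidase gene, stood at 16.2 ± 2.52 CPM in controls and 12.0 ± 2.18 CPM in mutants (adjusted p = 0.296). No gene of this list passed the test.

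Vcam1, Selp and Ackr1 act where leukocytes meet the vessel wall. Vcam1 encodes the ligand of leukocyte integrins that holds cells to the wall. It measured 22.3, 27.4 and 27.2 CPM across control replicates 1 to 3, against 42.0, 37.5 and 28.1 CPM across mutant replicates 1 to 3. All mutants lay above all controls, mutant replicate 3 by a small margin. The mutants differed by 0.49 on the log2 scale (SE 0.16, 95% interval 0.14 to 0.83), which did not pass over all genes (adjusted p = 0.161) and did without mutant replicate 3 (log2 fold change 0.64, adjusted p = 0.0379). It was 0.35 without mutant replicate 1 (adjusted p = 0.434), 0.45 without mutant replicate 2 (adjusted p = 0.500) and 0.26 in the female libraries (adjusted p = 0.520). The 8 markers of fibroblasts, which can also make VCAM-1, were led by Col3a1 and summed to 1076 to 1672 CPM in controls and 1260 to 1908 CPM in mutants, and the 8 smooth muscle and pericyte markers, led by Acta2, to 239 to 356 and 295 to 441 CPM. Both sums were lowest in replicate 3 of each group, and their part in Vcam1 was not tested.

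Selp encodes P-selectin, which endothelium stores in Weibel-Palade bodies and moves to the surface when activated. It measured 5.83, 9.68 and 10.8 CPM across control replicates 1 to 3, against 18.6, 9.86 and 5.17 CPM across mutant replicates 1 to 3. The mutants held both the highest and the lowest library, and the highest was 3.59 times the lowest. The log2 difference was 0.35 (SE 0.47, 95% interval -0.75 to 1.46, adjusted p = 0.792), and it turned to -0.23 without mutant replicate 1. In the male pair Selp went from 5.83 to 18.6 CPM, while the female libraries alone gave a log2 fold change of -0.46. With 1 male library in each group, the males have no spread of their own, for Selp or any other member. The interaction of genotype and sex was 2.13 on the log2 scale (edgeR, unadjusted p = 0.00201, adjusted p = 0.284), which does not show whether the sexes differ.

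Platelets also carry Selp, and the 8 megakaryocyte and platelet markers, led by Itga2b, summed to 56.5 to 84.8 CPM in controls and 60.3 to 87.5 CPM in mutants. Mutant replicate 1, the highest for Selp, had the lowest platelet sum of the mutants. Among the controls, replicate 3 was the highest for both. The part of platelets in Selp was not tested. Gm16548, on the opposite strand, shares 9.93% of the annotated exon length of Selp, and reads there could come from either gene. Among 13 tested genes of leukocyte adhesion 0 were called by edgeR, with 2 higher and 1 lower at an unadjusted p under 0.05 and a median log2 fold change of 0.02. The smallest p values belonged to the junction genes F11r, at 286 ± 9.62 and 353 ± 15.9 CPM (adjusted p = 0.0740), and Jam2, at 141 ± 15.8 and 110 ± 9.59 CPM (adjusted p = 0.132). DESeq2 called F11r higher (adjusted p = 0.0304).

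Sele, the E-selectin gene, moved across libraries much as Selp did, and was named after its values were seen. It measured 3.97, 11.7 and 11.6 CPM across control replicates 1 to 3, against 18.1, 8.85 and 4.54 CPM across mutant replicates 1 to 3. Icam1, named in the same way, stood at 498, 662 and 615 CPM in controls and at 661, 578 and 427 CPM in mutants. For all 3 genes the lowest control was replicate 1, and the mutants ran from replicate 1 at the top to replicate 3 at the bottom. Of 13 genes of NF-kappaB feedback and targets, which inflammatory signals raise together with E-selectin, 0 were called by edgeR, with 1 higher and 0 lower at an unadjusted p under 0.05. The smallest p values belonged to Nfkbie, an inhibitor gene, at 17.6 ± 5.07 and 25.2 ± 3.07 CPM (adjusted p = 0.284), and Csf1, a growth factor gene, at 50.9 ± 0.787 and 57.5 ± 4.02 CPM (adjusted p = 0.435). The list's summed level was also lowest in replicate 1 of the controls and replicate 3 of the mutants, at 1337, 1990 and 1729 CPM in controls and 1914, 1847 and 1491 CPM in mutants. The part of these signals in the selectin values was not tested.

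**Figure D2:**
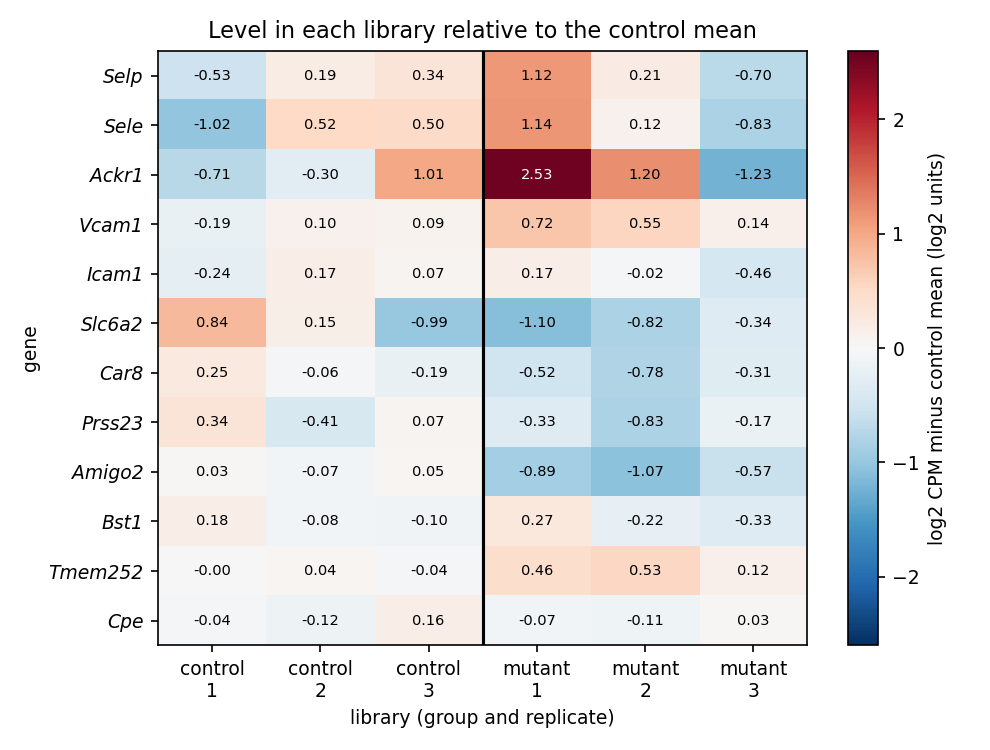
Log2 CPM of the 10 venous genes and of Sele and Icam1 in each library, minus the mean of the 3 controls (prior count of 2), with columns for libraries and the colour scale in log2 units. Selp, Sele and Ackr1 are high in mutant replicate 1 and low in mutant replicate 3, while Amigo2 is low in all 3 mutants.

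Ackr1 encodes the atypical chemokine receptor of venules, which binds chemokines without signalling. Only 4, 4 and 18 reads were counted across control replicates 1 to 3, and 49, 16 and 2 across mutant replicates 1 to 3. These are 0.187, 0.285 and 0.868 CPM in controls and 2.69, 1.00 and 0.0976 CPM in mutants. The exact Poisson 95% interval, which covers counting error only, was 1.99 to 3.56 CPM in mutant replicate 1 and 0.0118 to 0.352 CPM in mutant replicate 3, so that these 2 libraries differed by more than counting error. Mutant replicate 3 was below the floor of 3 counts. Fitted on the log2 scale, the difference was 1.43 (SE 1.02, 95% interval -0.97 to 3.84, adjusted p = 0.599). It was 0.17 without mutant replicate 1, 2.42 without control replicate 3 and -0.25 in the female libraries. The interaction of genotype and sex was 4.06 on the log2 scale for Ackr1, -1.70 for Slc6a2 and 0.65 for Vcam1. Each rests on 1 male library a group, so these values do not show whether the sexes differ. Cadm3, on the same strand, shares 25.7% of the annotated exon length of Ackr1, so that reads there could be counted for either gene or set aside as ambiguous.

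Tmem252 encodes a small membrane protein and Bst1 an enzyme anchored to the cell surface that makes cyclic ADP-ribose. Tmem252 measured 60.1, 62.1 and 58.7 CPM across control replicates 1 to 3, against 82.8, 87.3 and 65.7 CPM across mutant replicates 1 to 3. The controls were close together and all mutants lay above them. The mutants differed by 0.38 on the log2 scale (SE 0.11, 95% interval 0.13 to 0.64), which did not pass (adjusted p = 0.128) and did without mutant replicate 3 (log2 fold change 0.50, adjusted p = 0.0372). It was 0.34 without mutant replicate 1 (adjusted p = 0.337) and 0.30 without mutant replicate 2 (adjusted p = 0.461). Bst1 stood at 21.6, 18.1 and 17.8 CPM in controls and at 23.1, 16.4 and 15.2 CPM in mutants. Its groups overlapped, replicate 1 was the highest in both, and the log2 fold change was -0.08 (95% interval -0.46 to 0.31, adjusted p = 0.889). Bst1 is also known on myeloid cells and their precursors, and the leukocyte markers, led by Lyz2, summed to 727 to 901 CPM in controls and 755 to 848 CPM in mutants.

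Prss23 and Cpe encode proteases, and they were the most abundant members per length. The part of other cell types in their levels was not tested. Prss23, a secreted serine protease gene, measured 151, 89.4 and 125 CPM across control replicates 1 to 3, against 94.9, 67.2 and 106 CPM across mutant replicates 1 to 3. Replicate 2 was the lowest in both groups, and the groups overlapped. The log2 difference was -0.45 (SE 0.23, 95% interval -0.99 to 0.09, adjusted p = 0.445), and it was -0.26 without control replicate 1 and -0.28 without mutant replicate 2. Cpe, which encodes the carboxypeptidase that trims prohormones, stood at 91.8, 86.7 and 105.7 CPM in controls and at 89.9, 87.6 and 96.1 CPM in mutants. All 3 mutants lay within the control range, and the log2 fold change was -0.05 (95% interval -0.27 to 0.16, adjusted p = 0.849). Of the members, Cpe had the narrowest interval. An antisense gene, Prss23os, covers 22.9% of the exon length of Prss23. Prss23os has no entry in the deposited counts, so reads of either gene from the shared bases could be counted for Prss23.

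**Figure D3:**
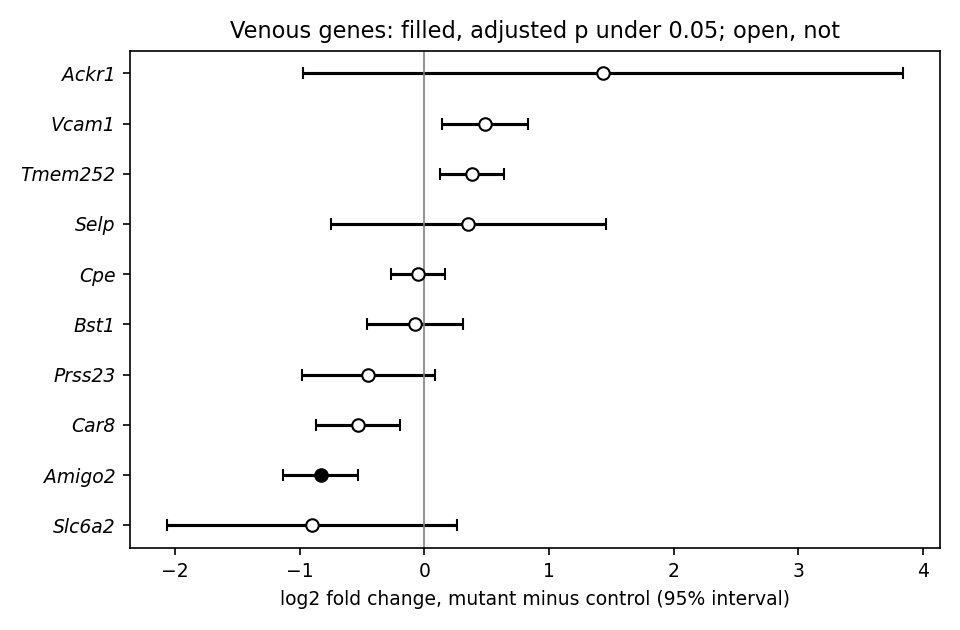
Log2 fold change of each venous gene, mutant minus control, with its unadjusted 95% interval from the edgeR fit; the filled point passed at an adjusted p under 0.05. Amigo2, at -0.83, is the filled point, and the intervals of Slc6a2, Selp and Ackr1 are the widest.

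Levels can be compared between the genes only per length, here as CPM per kilobase of all annotated exons (GENCODE M21). In controls they ran from Cpe at 36.3 ± 3.76 and Prss23 at 32.4 ± 8.23, through Car8 at 13.7 ± 2.24, Tmem252 at 12.0 ± 0.341, Amigo2 at 11.7 ± 0.511, Slc6a2 at 8.35 ± 4.73 and Bst1 at 5.78 ± 0.639, to Vcam1 at 2.89 ± 0.326, Selp at 1.99 ± 0.591 and Ackr1 at 0.318 ± 0.262 (CPM per kilobase, SD, n = 3). Cpe and Prss23 overlapped, as did each neighbouring pair from Car8 to Bst1, while the last 3 did not overlap each other or Bst1. In mutants Tmem252, at 15.6 ± 2.27, stood above Car8, at 9.45 ± 1.53, and Amigo2 stood at 6.57 ± 1.19. The mutant libraries of Tmem252, Car8 and Amigo2 did not overlap each other, whereas each neighbouring pair from Amigo2 down through Bst1, Slc6a2, Vcam1, Selp and Ackr1 did.

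**Figure D4:**
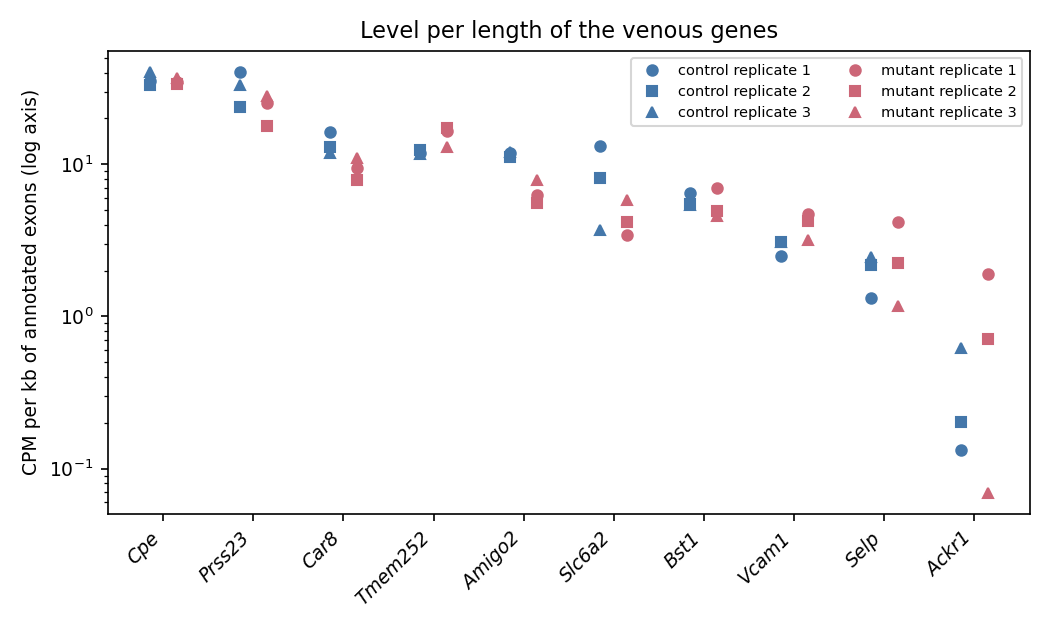
Level of each venous gene per kilobase of annotated exons (CPM per kb, log axis), with 1 point per library. Cpe and Prss23 lie at the top and Ackr1 at the bottom, where the mutant libraries run from 0.0694 to 1.91 CPM per kb.

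A further list of venous genes showed calls in both directions. It was chosen by name, with earlier results of these data known, and also holds Eln, Mgp and Smarca4. No value here shows that its genes or the members are confined to veins. Aplnr stood both on this list and on that of general capillary genes. Of its 18 genes, 1 rose, 1 fell and 16 did not pass, with a median log2 fold change of 0.07. Cd200, which encodes a surface ligand that restrains myeloid cells, rose from 198 ± 23.3 to 302 ± 8.21 CPM (log2 fold change 0.61, SE 0.10, adjusted p = 0.00771). Adgrg6, an adhesion receptor gene, fell from 298 ± 12.0 to 213 ± 14.0 CPM (log2 fold change -0.49, SE 0.08, adjusted p = 0.0108), a call that ended without mutant replicate 1 (adjusted p = 0.0503) or 2 (0.0661). Nr2f2, which encodes the venous transcription factor COUP-TFII, stood at 45.4 ± 5.65 CPM in controls and 48.8 ± 5.76 CPM in mutants (adjusted p = 0.766). Ephb4, the venous ephrin receptor gene, stood at 410.2 ± 15.3 and 392 ± 20.1 CPM (adjusted p = 0.771). The last 2 were named for their standing as venous regulators, after their values were seen.

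Relatives of the members by gene family also went both ways, with 1 higher, 2 lower and 18 of 21 tested not called. Slc6a6, the taurine transporter gene and a relative of Slc6a2, fell from 452 ± 28.2 to 220.4 ± 22.8 CPM (log2 fold change -1.03, SE 0.10, adjusted p = 0.000604). Ackr3, a scavenger receptor gene for CXCL12 and a relative of Ackr1, rose from 231 ± 18.5 to 372 ± 33.5 CPM (log2 fold change 0.69, SE 0.10, adjusted p = 0.00378). Ackr2, a scavenger of inflammatory chemokines, fell from 108 ± 21.0 to 67.1 ± 9.51 CPM (log2 fold change -0.68, SE 0.15, adjusted p = 0.0471). The call of Ackr2 was lost when control replicate 1 or 2, or mutant 1 or 2, was left out (adjusted p = 0.0569, 0.0850, 0.122 and 0.208).

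Beside these, 5 of 22 arterial genes were called, with 1 higher (Unc5b) and 4 lower (Pcsk5, Gja4, Sox17 and Efnb2, the last named after its values were seen), and a median log2 fold change of -0.17. The call of Unc5b was lost in all fits that left out 1 library but that of mutant replicate 3 (adjusted p = 0.0542 to 0.112), and the lower count was 2 or 3 in the fits without a library. Of 13 general capillary genes 7 were called, with 1 higher (Gpihbp1, named after its values were seen, and not called without control replicate 2 or mutant replicate 2, adjusted p = 0.0503 and 0.0533) and 6 lower, led by Sema3c, Plcb1, Cd36 and Scn7a, and a median of -0.35. The lists were of unequal size and were not tested against each other, so that nothing particular to the venous genes can be read from these counts. Lymphatic endothelium shares several venous genes. Of 7 tested lymphatic markers, 3 had a log2 fold change above 0 and 4 below, with a median of -0.13. Ccl21a was at 0 counts throughout, and 0 markers were called lower. Lyve1 was the 1 called higher, from 713 ± 50.1 to 968 ± 17.2 CPM (adjusted p = 0.0166). That call ended without control replicate 2 or mutant replicate 1 or 2 (adjusted p = 0.0622, 0.0700 and 0.0904).

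**Figure D5:**
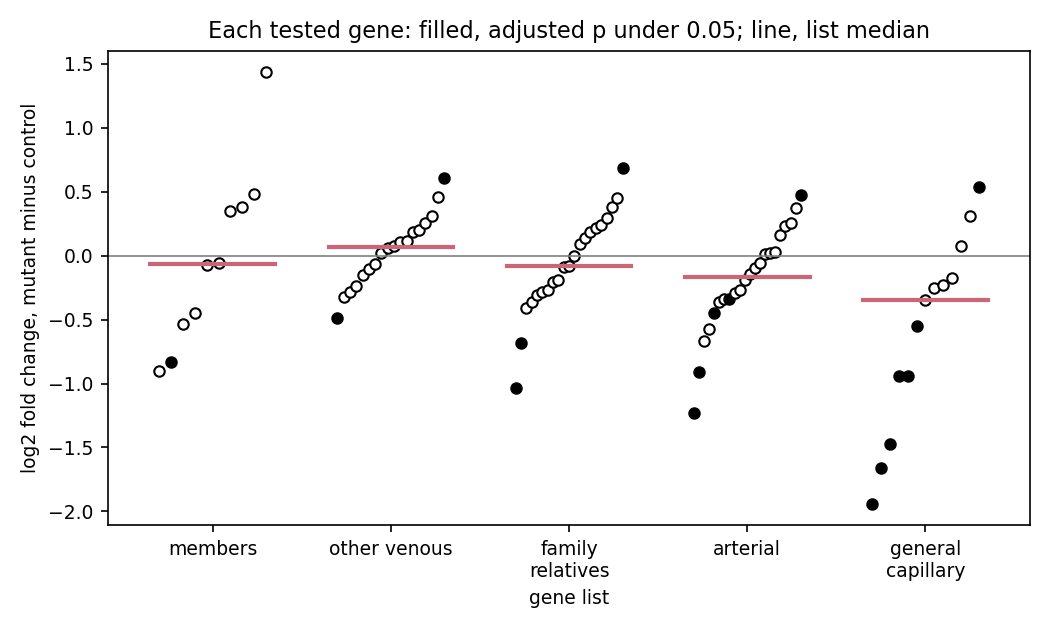
Log2 fold change, mutant minus control, of each tested gene of 5 lists, sorted within a list, with filled points at an adjusted p under 0.05 and a line at the list median. The medians are -0.07 for the 10 venous members, 0.07 for other venous genes, -0.08 for family relatives, -0.17 for arterial and -0.35 for general capillary genes.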

How the data were processed

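Polyadenylated RNA of CD31-selected lung cells was sequenced in 3 control and 3 mutant libraries, made with a TruSeq RNA v2 kit per the labels' protocols. The authors deposited raw gene counts, whole numbers per gene symbol with no normalization, in a table of the series and per library, and 0 values differed between the 2 forms. Per the submitters' processing notes the build was mm10 and DESeq2 was used, with no version. For the aligner, counting tool, annotation and any use of strand: not given in the sources used here. Reads with no feature (53.9% to 58.2% per library) and ambiguous reads (0.288% to 0.366%) were left out.

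Counts were fitted in R 4.3.3 with edgeR 4.0.16 (filterByExpr, TMM factors, robust quasi-likelihood F test, two-sided, all 6 libraries, no covariate), adjusted by Benjamini-Hochberg over all tested genes and called under 0.05. The SE was the log2 fold change over the square root of F. CPM used TMM-scaled library sizes. Replicates of each group differed by more than sampling noise (lowest ratio of chi-square to its degrees of freedom 12.3). Other fits used RLE or upper-quartile factors, no filter, DESeq2 1.42.0, limma-voom (limma 3.58.1), a replicate block, sex as a covariate, and each library left out. A fit of the female libraries was added after seeing the data. The fits were tested on simulated data.

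The members, lists and motifs were chosen with earlier results of these data known. Besides members, up to 4 called genes with the smallest p per list were named, or the 2 with the smallest p where fewer than 2 were called; genes named outside this rule are said to be so. A few genes the rule names are not reported here. Coordinates and exon lengths are from GENCODE M21 (GRCm38, the assembly of mm10), promoters from RefSeq (GRCm38.p6).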

Additional observations from a re-analysis of the deposited data

How the results depend on the processing

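Of 140 refits of single members, 130 kept their direction and their side of the threshold. Of the others, 6 reversed a log2 fold change that was not called: Ackr1 to -0.25 and Selp to -0.46 in the female libraries, Selp to -0.23 without mutant replicate 1, Bst1 to 0.02 without control replicate 1 and to 0.043 without mutant replicate 3, and Cpe to 0.031 without control replicate 3. Among named genes that are not members, Sele turned to -0.15 without control replicate 1, -0.44 without mutant replicate 1 and -0.81 in the female libraries, and Icam1 to 0.069 without mutant replicate 3. Over the fits without a library the log2 fold change ran from -0.23 to 0.70 for Selp, -0.29 to 0.043 for Bst1, -0.11 to 0.031 for Cpe, -0.44 to 0.59 for Sele and -0.24 to 0.069 for Icam1. The count of members called higher was 0, and 0 to 2 over the fits without a library (2 without mutant replicate 3). The count of members called lower was 1, 2 in DESeq2, 0 in the female libraries and 1 in each fit without a library. Over all genes 488 were called, 747 in DESeq2 and 211 to 428 without a library (293 without control replicate 2, 325 without control replicate 3, 211 without mutant replicate 2). The cause was not tested, except that fits without a library have fewer samples. Arterial genes called lower, 4, came to 2 to 5, and capillary genes called lower, 6, to 4 to 6. Same-numbered libraries had correlations of their deviations across genes of -0.010, 0.019 and 0.16. Differently numbered ones ran from -0.154 to 0.119. With 3 libraries a group these values cannot show whether the numbers pair libraries. With the replicate block 466 genes were called, Amigo2 gave -0.84 (adjusted p = 0.00433), the adjusted p of Prss23 went from 0.445 to 0.0612, and the venous counts stayed at 0 higher and 1 lower. Ackr1 had the fewest reads among the members, with 2 to 49 counts per library against at least 106 for each other member. Every member rests on 3 libraries a group, and what limits each result was not tested.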
